A study of Rattus norvegicus with 12 samples.

Results

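The spots described here are the Glul-rich spots of 2 Visium sections of healthy male Wistar rat liver, called section A and section B. Visium captures RNA on a grid of barcoded spots, and a spot is a small region of tissue that can hold several cells of different types. Spots with at least 5000 UMIs (unique molecular identifiers, each counting 1 captured RNA molecule) were kept, and the members were chosen by their measured Glul UMIs per 10000, as the highest 5% of kept spots in each section. These were 113 of 2260 kept spots in section A and 110 of 2196 in section B, 223 of 4456 in all, out of 4841 spots in the files. They were compared with 363 spots of section A and 378 of section B in which Cyp2e1 lay above the section's median and no Glul UMI was found, called Glul-0 pericentral spots below. The study gave no treatment, and the study describes the sections as coming from separate Wistar rats, while no label ties each to its own animal and their deposited names carry the same animal number, so spread between them may be technical. The same rule was applied to 4 single-nucleus RNA-seq libraries of healthy male rats, 2 of the DA and 2 of the LEW strain, made from snap-frozen median lobe and called DA1, DA2, LEW1 and LEW2.

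Blood crosses the liver lobule from the portal triad to the central vein, and hepatocytes along that path carry out different reactions. Urea is made mainly on the portal side, whereas glutamine synthetase, the product of Glul, takes up the remaining ammonia in a thin layer of hepatocytes that touches the central vein. Cyp2e1, a cytochrome P450 that oxidises ethanol and other small molecules, marks a wider pericentral zone. Wnt ligands from the endothelium of the central vein keep beta-catenin signaling high in that layer, and Glul is among the genes that depend on it.

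Glul and Cyp2e1 chose the spots, so their values are a description only. In the Glul-rich spots of section A, Glul ranged from 4.24 to 18.01 UMIs per 10000 around a median of 6.70. Section B gave a range of 4.27 to 18.1 and a median of 7.65. The last spot taken held 4.24 Glul UMIs per 10000 (section A) or 4.27 (section B), and the first left out held 4.21 or 4.22. The boundary therefore fell within a continuous range of Glul levels. Median Cyp2e1 was 22.5 UMIs per 10000 in the Glul-rich spots of section A, where the Glul-0 pericentral spots had 18.1. The section B medians were 26.5 and 19.8. Cyp2e1 lay above the section's median in 105 (92.9%) of the Glul-rich spots of section A and 103 (93.6%) of those of section B. Median depth per spot was 14603 (A) and 13545 (B) UMIs for the Glul-rich class and 13034 and 13001 for the other. The sections shared 1793 spot barcodes, as slides of 1 design do, and 3 barcodes were Glul-rich in both.

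**Figure D1:**
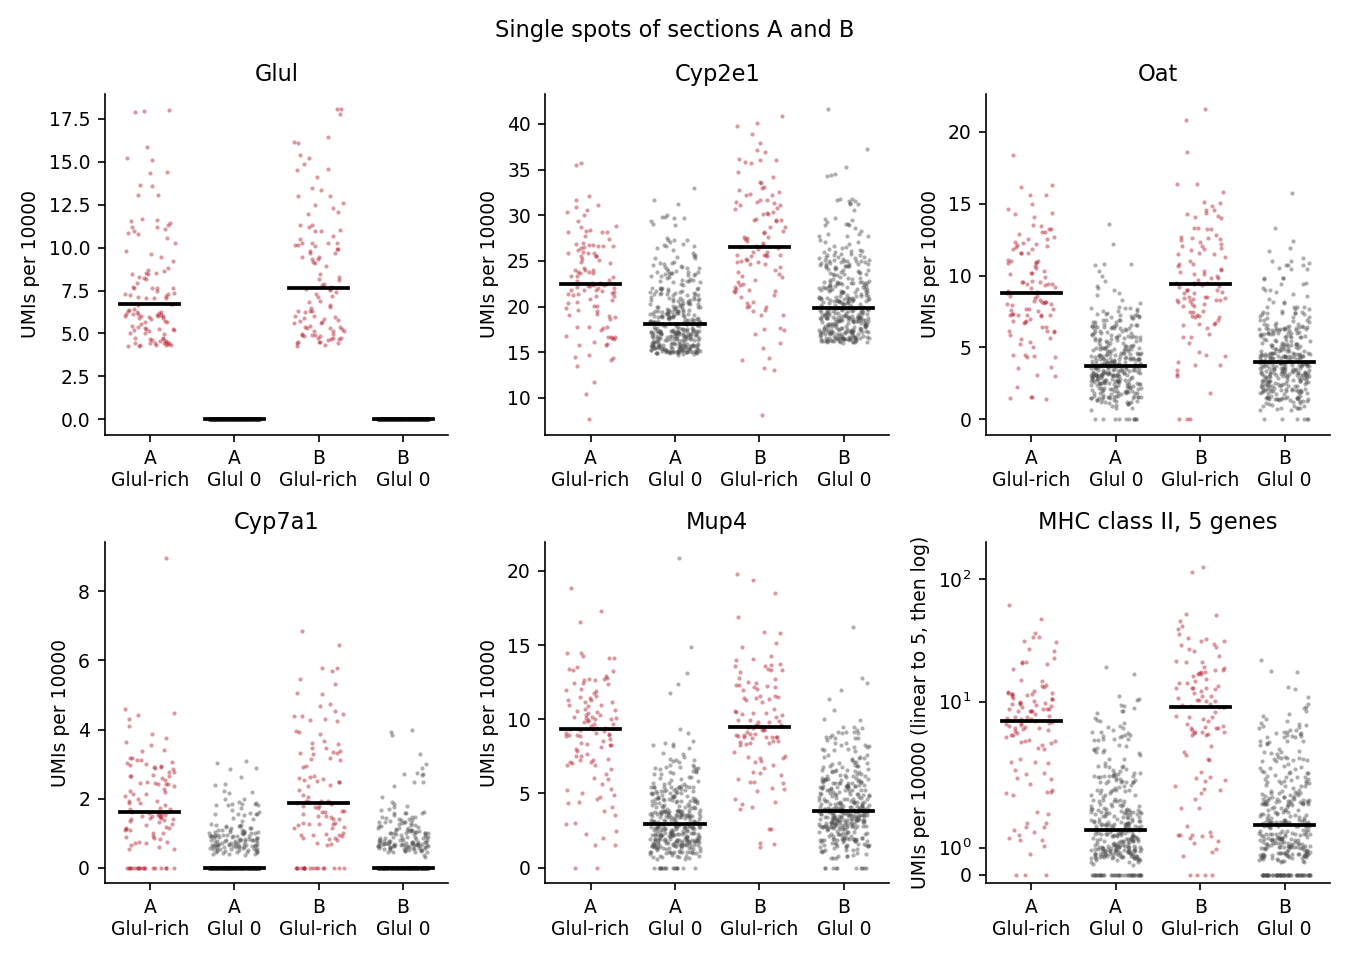
Each point is 1 spot of section A or B, red for Glul-rich and grey for Glul-0 pericentral spots, with UMIs per 10000 on the vertical axis and the median as a black bar. Oat, Mup4 and the MHC class II sum have higher medians in the Glul-rich spots of both sections, and the classes overlap in every gene but Glul.

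UMIs were summed over the spots of each class in each section, expressed as counts per 1000000 UMIs of the class (CPM), and 7860 genes other than Glul and Cyp2e1 were tested with the section as a block. At an adjusted p under 0.05 (edgeR's quasi-likelihood test, Benjamini-Hochberg adjustment) and the same direction in both sections, 226 genes (2.88% of those tested) were higher and 251 (3.19%) were lower in the Glul-rich spots, 6.07% in either direction. Against only those Glul-0 spots with Cyp2e1 in the top 25% of their section, 149 genes (2.19%) were higher and 162 (2.38%) lower, with log2 changes of 0.89 for Oat, 1.91 for Cyp7a1 and 2.49 for Slc13a3. DESeq2 called 54 higher and 87 lower on the same sums, all 141 among the calls of edgeR, but gave no adjusted p for 5182 of the genes, Rhbg, Slc13a3 and Axin2 among them. The fit found hardly any spread between the sections beyond counting error, with a biological coefficient of variation of 0.0268. The adjusted p-values therefore rest on 2 sections and mostly on the number of UMIs counted. The median log2 fold change over all tested genes was 0.00341.

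The leading higher genes of each section were then read in the other section. Log2 ratios of each section were taken after adding 10 CPM to both classes. Of the 50 genes with the highest ratio in section A, 49 were above 0 and 41 above 0.5 in section B, where 59.5% of all tested genes were above 0 and 2.901% above 0.5. Of the 50 highest in section B, 49 were above 0 and 42 above 0.5 in section A, beside 57.4% and 1.87% of all genes. On the lower side 37 of the 50 lowest genes of section A were below 0 in section B and 18 were under -0.5, beside 40.5% and 0.865% of all genes, with the same 2 counts when the sections were exchanged. For the lowest genes of section A the counts of 37 and 18 became 25 and 11 with 1 CPM added and 49 and 14 with 50. For those of section B they became 24 and 7 with 1 CPM and 49 and 12 with 50. In all, 72 genes (0.916%) were above 0.5 in both sections, 18 (0.229%) were under -0.5 in both, and 2 passed that size in opposite directions. These counts were 300, 89 and 116 with 1 CPM added and 29, 10 and 0 with 50.

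**Figure D2:**
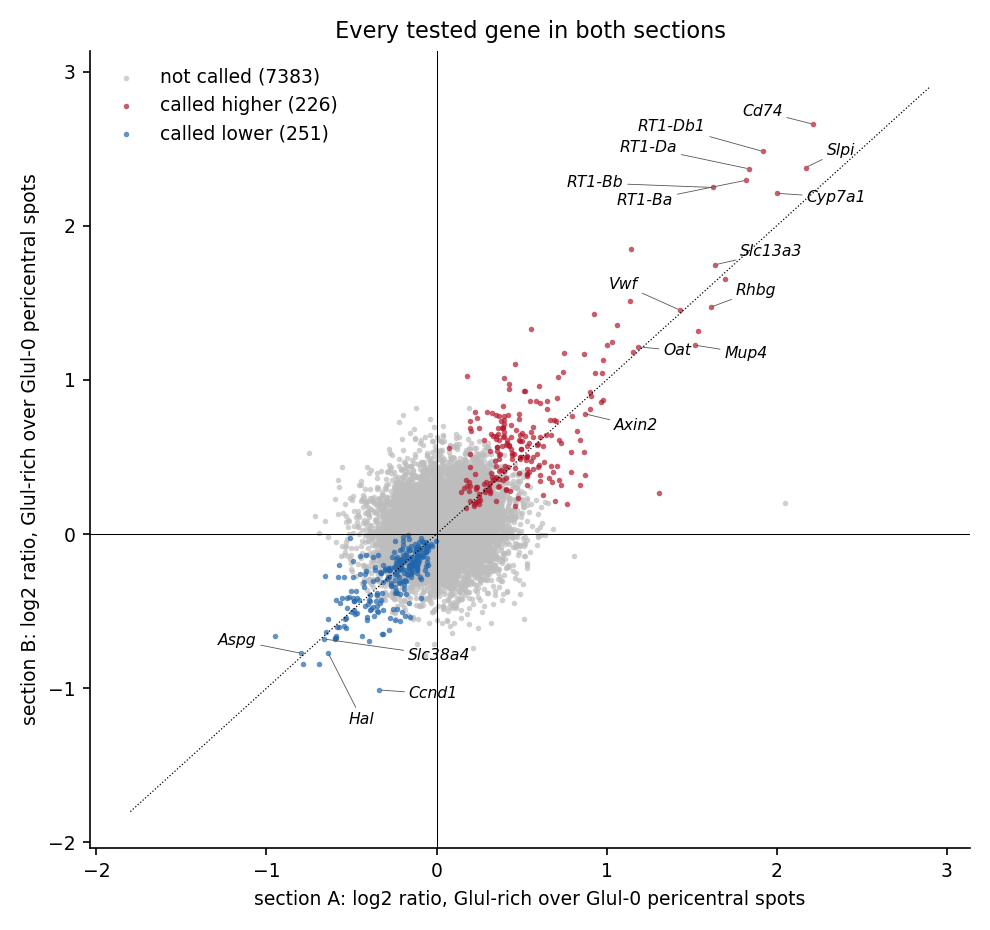
Each point is 1 of 7860 tested genes, placed by its log2 ratio of Glul-rich over Glul-0 pericentral spots in section A (horizontal) and section B (vertical), after adding 10 CPM. The 226 genes called higher are red, the 251 called lower are blue, and Cd74, Slpi and Cyp7a1 lie near 2 or above in both sections.

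Genes of ammonia and glutamine handling on the perivenous side were the first group examined. Of 8 tested, 4 were higher and 1 was lower, with a median log2 fold change of 0.15. For this and every list below, the shares over all tested genes were 2.88% higher and 3.19% lower. Oat, the mitochondrial ornithine aminotransferase that feeds glutamate from ornithine, stood at 941 and 1022 CPM in the Glul-rich spots of sections A and B and at 408 and 434 in the Glul-0 pericentral spots. It rose 2.22-fold (log2 1.15 ± 0.05, adjusted p = 7.88e-123 by edgeR). Here and below ± is a standard error taken back from the test statistic. In the sections it mostly reflects the number of UMIs counted, not a spread between the 2 sections. Rhbg, an ammonia transporter of the Rh glycoprotein family, had 41 and 33 UMIs in the Glul-rich spots and 6 and 8 in the Glul-0 pericentral spots. In CPM the Glul-rich spots stood at 24.3 and 22.1 and the Glul-0 pericentral spots at 1.23 and 1.59. The fitted log2 change was 3.94 ± 0.35 (adjusted p = 1.85e-27, edgeR). In the spots just under the boundary, the top 10 to 5% of Glul, Rhbg stood at 6.41 and 6.50 CPM. Slc13a3, a sodium-coupled dicarboxylate transporter, was at 32.6 and 39.6 CPM against 3.69 and 4.78, an 8.08-fold rise. Glud1, the glutamate dehydrogenase, rose by less, from 845 to 1051 and from 927 to 1128 CPM (1.17-fold, adjusted p = 3.53e-06, edgeR).

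Slc38a4, an amino acid transporter of the hepatocyte membrane, went the other way. It stood at 446 and 437 CPM in the Glul-rich spots and at 710 and 706 in the Glul-0 pericentral spots, and fell to 0.595 times (adjusted p = 3.78e-45, edgeR). The glutamine transporter Slc38a3 had 599 and 580 CPM against 541 and 539, and did not pass the test (adjusted p = 0.651, edgeR). Slc38a2 and Slc1a4 did not pass it either, with adjusted p-values of 0.879 and 0.996 (edgeR). The other 5 genes of the list, including the glutamate transporter gene Slc1a2, had too few UMIs to be tested.

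Of 6 tested Wnt/beta-catenin targets, 2 were higher and 1 was lower. Axin2, a feedback inhibitor of the pathway, was at 15.4 and 18.8 CPM against 3.90 and 6.77, a 3.06-fold rise (adjusted p = 7.56e-07, edgeR). Sp5, a transcription factor gene, had 6 and 8 UMIs in the Glul-rich spots against 3 and 2, ratios of CPM of 5.79 (95% exact counting interval 1.24 to 35.8) and 13.5 (2.69 to 130). Ccnd1, which encodes cyclin D1, was lower, at 16.6 and 10.1 CPM against 23.6 and 30.4 (0.481 times, adjusted p = 6.44e-05, edgeR). Notum, Tcf7l2 and Nkd1 had fitted log2 changes of 0.27, 0.31 and 1.02 and did not pass the test. Lgr5, the R-spondin receptor, was too low to be tested. Of the Wnt ligands, R-spondins and genes of central vein endothelium, 2 of 11 could be tested and neither was called. Rspo3, whose product strengthens Wnt signals, had 10.7 CPM in the Glul-rich spots of both sections against 3.28 and 7.96 (adjusted p = 0.0961, edgeR). Thbd, the thrombomodulin gene, had 2.37 and 12.1 against 3.49 and 4.38, so the sections differed in direction.

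Short stretches of 3 promoters are shown because they hold the core letters CTTTGAT of the site for TCF/LEF, the factors through which beta-catenin acts. They come from RefSeq on build GRCr8, on the plus strand, and capitals mark the match. The Glul window is at chr13:68519250-68519296 and its match, 230 bases before the start of the first of 2 listed promoters, is on the opposite strand. The Axin2 window is at chr10:94398633-94398679 with the match 132 bases before the start, and the Sp5 window at chr3:75682553-75682599 with the match 104 bases before it.
Glul: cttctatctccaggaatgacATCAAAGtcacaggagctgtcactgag
Axin2: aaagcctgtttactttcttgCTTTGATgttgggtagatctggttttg
Sp5: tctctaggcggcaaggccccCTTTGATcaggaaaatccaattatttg
The letters occur on either strand in the 250 bases before the start in 3.15% of 33469 promoters. Counted by gene, 7 of 162 genes called higher with a listed promoter held them (4.32%) and 4 of 178 called lower (2.25%), beside 3.46% of all 27457 genes. Cyp1a2, no member of the Wnt list, also held a match, 90 bases before its start. Oat, Rhbg and Slc13a3 held none in this window, and a match is a description of letters, not of binding.

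Bile acid genes changed in both directions. Of 24 tested genes of bile acid synthesis and hepatic transport, 6 were higher and 6 lower, beside 2.88% and 3.19% of all tested genes. Cyp7a1, the rate-limiting enzyme of bile acid synthesis from cholesterol, was at 189 and 234 CPM in the Glul-rich spots against 39.6 and 42.8, and rose 4.89-fold (log2 2.29 ± 0.09, adjusted p = 4.63e-125, edgeR). A Cyp7a1 UMI was found in 95 of 113 and 93 of 110 Glul-rich spots and in 138 of 363 and 151 of 378 Glul-0 pericentral spots. Cyp7b1, which acts in the alternative route to bile acids, was lower, at 19.6 and 20.8 against 31.4 and 33.4 (adjusted p = 0.00247, edgeR), but was not called against the Glul-0 spots with the highest Cyp2e1 (adjusted p = 0.392). Cyp27a1, which opens that alternative route, was higher (log2 0.31) but was not called by DESeq2 or against those spots (adjusted p = 0.493 and 0.135), and Cyp8b1, which makes the precursor of cholic acid, was lower (log2 -0.53). The most abundant member of the list, the lipid carrier gene Scp2, fell by 0.17 on the log2 scale, with 1782 and 1969 CPM against 1919 and 2103. It was called in 10 of 12 alternatives.

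Cytochrome P450 genes as a family did not move one way. Of 30 tested P450 and receptor genes other than Cyp2e1, 6 were higher and 5 lower, beside 2.88% and 3.19% of all tested genes. The median log2 fold change of the list was -0.05. Cyp2c6v1 was at 2252 and 2213 CPM against 1196 and 1186 (1.79-fold), and Cyp1a2, a target of the aryl hydrocarbon receptor, at 1193 and 1344 against 780 and 867 (1.47-fold). Of the receptor genes, Ahr and Nr1i3 were higher, whereas Nr1i2, the pregnane X receptor, was not called (58.7 and 67.1 CPM against 65.4 and 71.0). Ahr, the aryl hydrocarbon receptor, stood at 63.5 and 48.3 CPM against 31.0 and 28.3, and Nr1i3, the constitutive androstane receptor, at 59.3 and 67.8 against 34.2 and 32.8. Both passed the test of edgeR (adjusted p = 2.08e-07 and 2.47e-08) but not that of DESeq2 (0.113 and 0.0603). Cyp2c11, the most abundant P450 of the list, had 4142 and 4168 against 3933 and 4078 and was not called (adjusted p = 0.915, edgeR).

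Among 32 phase II conjugation genes, 8 were higher and 6 lower, beside 2.88% and 3.19% of all tested genes. Gsta3, a glutathione transferase, and Nqo1, a quinone reductase, had log2 changes of 0.65 and 0.58, but DESeq2 called neither (adjusted p = 0.571 and 0.202), and Gsta3 was not called against the Glul-0 spots with the highest Cyp2e1. Mgst1, the most abundant, was lower by 0.13 on the log2 scale, with 3293 and 3324 CPM against 3457 and 3475. It was called in 9 of 12 alternatives. Sult2a6, a sulfotransferase, was at 319 and 305 CPM against 486 and 489 (0.612 times). Among 19 genes listed as other perivenous hepatocyte genes, 6 were higher and 3 lower. Csad, an enzyme of taurine synthesis, rose 1.59-fold, and Gulo, the last enzyme of vitamin C synthesis, had a log2 change of 0.58, from 654 to 1028 and from 717 to 1124 CPM. Hamp, the gene of the iron hormone hepcidin, is in that list but was lower, at 716 and 656 against 1045 and 967 (0.651 times), and was highest in the spots with no Glul and low Cyp2e1 (1232 and 1226 CPM). Pon1, the most abundant of these genes, had 1809 and 1849 against 1814 and 1852 and was not called.

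Periportal genes were mostly lower. Of 28 tested, 21 were lower, none was higher and 7 did not pass, with a median log2 change of -0.40. Ass1, the urea cycle enzyme argininosuccinate synthase, was at 1473 and 1348 CPM against 2221 and 2154 (0.615 times, adjusted p = 9.04e-68, edgeR). Hal, which opens histidine breakdown, was at 95.5 and 89.9 against 154 and 160, and Hsd17b13, a lipid droplet enzyme, at 150 and 137 against 264 and 254. Alb, the albumin gene, took 97965 and 96167 CPM in the Glul-0 pericentral spots and 78552 and 73857 in the Glul-rich spots. Alb is large enough that a lower share raises the share of other genes, and so their CPM. The fitted changes use the TMM scaling of edgeR, which is meant to offset such shifts, whereas CPM are not scaled in this way. Glud1, for example, had ratios of CPM of 1.24 and 1.22 and a fitted rise of 1.17-fold. How much of any change remains from this was not tested. Hsd17b6, also of this list, fell to 0.596 times. Against the Glul-0 spots with the highest Cyp2e1, 14 of the 28 periportal genes were lower. Outside the lists, the genes that fell most at 50 or more CPM in the Glul-0 pericentral spots included Aspg, an asparaginase (0.490 times), the locus AABR07004549.1 (1040 and 1190 CPM against 1635 and 1850), Ces2e (0.610 times) and Spink1l, a trypsin inhibitor gene (0.559 times). Ces2e was not called by DESeq2 (adjusted p = 0.222) or against the Glul-0 spots with the highest Cyp2e1 (adjusted p = 0.0959, edgeR).

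**Figure D3:**
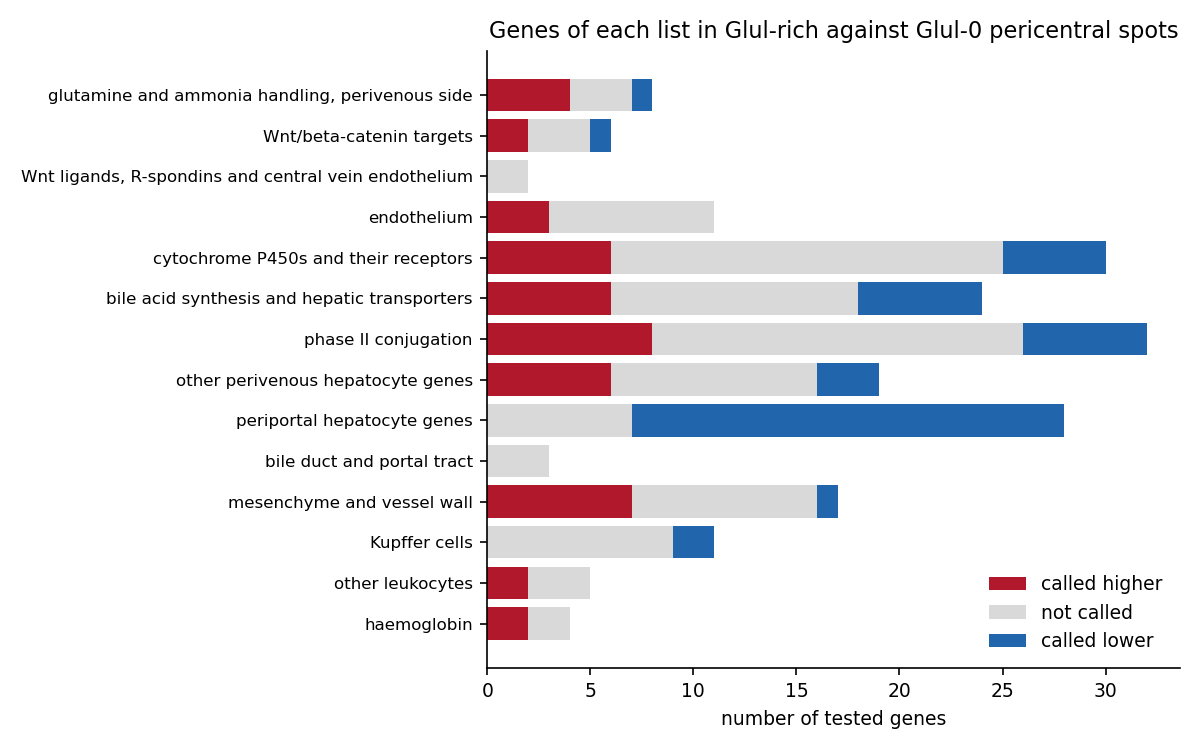
Bars give the number of tested genes in each list that were called higher (red), not called (grey) or called lower (blue) in the Glul-rich spots. The periportal list has 21 of 28 genes lower, and the P450 and conjugation lists have genes on both sides. Over all tested genes 2.88% were called higher and 3.19% lower.

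Genes of the MHC class II complex, which presents peptides to CD4+ T cells, were among the largest rises. Cd74, the invariant chain, stood at 418 and 560 CPM in the Glul-rich spots against 82.4 and 80.2, a 5.71-fold rise. RT1-Db1, a class II beta chain, was at 208 and 309 against 47.6 and 47.2. RT1-Da, RT1-Ba and RT1-Bb rose 5.05-fold, 5.47-fold and 4.66-fold, and DESeq2 called all 5. The related genes RT1-DMa, RT1-DMb, RT1-DOa, RT1-DOb, Ciita and Ctss had too few UMIs to be tested. Of these, Ctss was at 0.593 and 0 CPM against 1.03 and 2.19, and RT1-DOa at 1.19 and 5.37 against 1.64 and 0.199. The class II genes other than Cd74 were named by the size of their change, and their sum was formed after their values were seen. The summed UMIs of the 5 genes had a median of 6.97 per 10000 in the Glul-rich spots of section A, with a range of 0 to 61.8, and of 8.9999 in section B, with a range of 0 to 126. The Glul-0 pericentral spots had medians of 1.66 and 1.83. Of the Glul-rich spots, 67 of 113 and 67 of 110 lay above the 95th percentile of the Glul-0 pericentral spots. The lower quartile of the Glul-rich spots, 4.11 and 3.64, lay above the upper quartile of the Glul-0 pericentral spots, 2.96 and 3.01.

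The spots with the highest class II sum were not only Glul-rich spots. Of the 5% of kept spots with the highest sum, 38 of 113 in section A and 44 of 110 in section B were Glul-rich. The share of all spots outside the Glul-rich class that reached that level was 3.49% and 3.16%. Bile duct markers (8 genes summed) were at 37.5 and 64.1 CPM in the class II-high spots that were Glul-rich and at 102 and 121 in those that were not, beside 49.3 and 55.5 over all kept spots. Krt19, a defining marker of bile ducts, had no UMI in either class, so it does not separate them.

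Promoter windows of 4 class II genes are shown because they hold short elements known from this gene family. Capitals mark the Y box core CTGATTGG and, where present, the X box core, read as CT, any base, GCAAC, any base and G. The windows come from RefSeq on build GRCr8. They are at chr20:4515318-4515382 on the plus strand for RT1-Da, at chr20:4560226-4560289 on the minus strand for RT1-Db1, at chr20:4576966-4577030 on the plus strand for RT1-Ba and at chr20:4604163-4604194 on the minus strand for RT1-Bb.
RT1-Da: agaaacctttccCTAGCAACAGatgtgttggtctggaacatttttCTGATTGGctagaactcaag
RT1-Db1: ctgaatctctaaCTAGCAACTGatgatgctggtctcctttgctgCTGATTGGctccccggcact
RT1-Ba: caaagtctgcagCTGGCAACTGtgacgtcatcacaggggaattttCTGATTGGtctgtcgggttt
RT1-Bb: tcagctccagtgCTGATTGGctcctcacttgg
The elements lie 23, 22 and 23 bases apart in RT1-Da, RT1-Db1 and RT1-Ba. The Y box letters occur in 3.19% and the X box letters in 1.06% of all 33469 promoters over the same 250 bases on either strand, and neither was found in the window of Cd74. Counted by gene, 11 of 162 called higher (6.79%) and 9 of 178 called lower (5.06%) held the Y box, beside 3.44% of all genes. The X box was in 3 (1.85%) and 1 (0.562%), beside 1.17%. The genes shown are among those called higher, and a match is a description of letters, not of binding.

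Other leukocyte and stromal markers moved in part with the class. Of 5 tested leukocyte genes, Cd74 and the lysozyme gene Lyz2 were higher, and Ptprc, the pan-leukocyte marker CD45, was not called, with 8.90 and 6.71 CPM against 5.74 and 5.37. Outside the list, and chosen after their values were seen, Cst3 was at 342 and 395 CPM against 163 and 161 and Irf8 at 12.5 and 30.2 against 9.84 and 9.75, both called higher. Neither was called in the Glul-rich spots with a class II sum at or under the 95th percentile of the Glul-0 pericentral spots (adjusted p = 0.816 and 0.825, edgeR). That limit was set on the Glul-rich spots only, so by itself it lowers any gene that rises with the sum. The dendritic cell genes Flt3, Xcr1, Clec9a, Batf3, Irf4, Clec10a and Itgax, with 0 to 4 UMIs in each class, could not be tested. The Glul-rich class held fewer UMIs in all (1685486 and 1489890 against 4876191 and 5024769), so equal counts are not equal levels. In CPM Xcr1 was at 1.78 and 2.01 against 0.820 and 0.199, and Clec9a at 1.19 and 2.68 against 0.410 and 0.398. Itgax was at 1.19 and 0 against 0.615 and 0.398, and Flt3 and Batf3 had no UMI in either class. The whole leukocyte list summed to 450 and 599 CPM against 101.3 and 106, most of it Cd74. T cell, B cell and plasmacytoid markers of the list were too low to be tested. Of 11 Kupffer cell genes none was higher and 2 were lower, Marco at 47.5 and 43.6 against 54.3 and 63.1 and Hmox1 at 8.31 and 12.8 against 16.4 and 20.3. C1qa, a complement gene and the most abundant of the list, had 160 and 141 against 135 and 143. Against the Glul-0 spots with the highest Cyp2e1 no Kupffer gene was lower and 1 was higher. In bulk sums of spots, more cells of a type and more RNA per cell cannot be told apart.

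Some endothelial and vessel wall genes were higher, although most of those tested were not called. Vwf, the von Willebrand factor of large-vessel endothelium, was at 29.7 and 31.5 CPM against 4.72 and 5.17, a 5.87-fold rise. Of 11 endothelial genes 3 were higher, Vwf, Eng and Aqp1, whereas Kdr, the most abundant, was not called (adjusted p = 0.370, edgeR). DESeq2 did not call Eng (adjusted p = 0.370), and Aqp1 was called in 7 of 11 alternatives. Of 17 mesenchymal and vessel wall genes 7 were higher, among them Eln (elastin), Mgp (matrix Gla protein, 36.8 and 47.0 against 11.3 and 9.95) and Sparcl1, and Dpt was lower (0.766 times). The summed level of the mesenchymal list was 2026 and 2238 CPM against 1808 and 1904. Of the bile duct list, 3 of 10 genes could be tested and none was called, Anpep among them with 70.6 and 66.4 CPM against 66.2 and 66.9. The tissue image and spot positions were not used here.

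Slpi, which encodes a secreted inhibitor of leukocyte proteases, had the largest rise among called genes with 50 or more CPM in the Glul-rich spots. Rarer genes such as Rhbg and Slc13a3 rose by more (log2 3.94 and 3.01, against 2.71 for Slpi). Slpi was at 126 and 131 CPM against 20.3 and 17.1, a 6.55-fold rise. A Slpi UMI was found in 62 of 113 and 58 of 110 Glul-rich spots, with a highest value of 15.3 and 23.1 UMIs per 10000. In the nuclei it could not be tested, with 0, 0, 0 and 1 UMIs in the Glul-rich nuclei of DA1, DA2, LEW1 and LEW2 and 7, 18, 3 and 4 in the comparison nuclei. The locus AABR07048463.1, known in the files by that name only, was at 68.2 and 57.1 CPM against 14.2 and 11.3.

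The Glul-rich spots that were not high in class II were examined by themselves, in a comparison chosen after the data were seen. These were 46 spots in section A and 43 in section B. Their class II sum lay at or under the 95th percentile of the Glul-0 pericentral spots, which were not filtered themselves. A gene that rises with the class II sum therefore changes by less through this choice alone. Fewer spots entered and fewer genes were called, 58 higher and 66 lower. The hepatocyte genes changed by nearly as much as before. Cyp7a1 had a log2 change of 2.08 (2.29 over all Glul-rich spots), Oat 1.01 (1.15), Mup4 1.26 (1.33), Slc13a3 2.53 (3.01) and Slc38a4 -0.63 (-0.75). Slpi and some vessel genes changed by less. Slpi had 0.98 in place of 2.71, Vwf 1.17 in place of 2.55, and Mgp 0.63 in place of 1.90, and the last 2 were no longer called. Sparcl1 had 1.44 in place of 1.72 (adjusted p = 0.0253, edgeR), and Lox, chosen after its values were seen, 1.95 in place of 2.41 (adjusted p = 0.000116). Eln had 1.82 in place of 2.20 and was no longer called (adjusted p = 0.431). Within the Glul-rich spots the class II sum ranked with Slpi (Spearman's rho 0.50 over 113 spots and 0.54 over 110) and to a lower degree with Vwf (0.34 and 0.38), Oat (0.37 and 0.33), Glul (0.25 and 0.50) and Cyp7a1 (0.17 and 0.25). These correlations are over spots of 1 section that share a library and differ in depth, and are given as a description.

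Haemoglobin and mitochondrial genes also moved with the class. Of 4 haemoglobin genes Hba-a2 (1437 and 1593 CPM against 1003 and 831) and Hba-a3 (24.3 and 28.2 against 18.9 and 13.7) were higher, and haemoglobin made up a median of 0.105% and 0.108% of UMIs in the Glul-rich spots against 0.0809% and 0.0623%. Hba-a2 was called in 8 of 11 alternatives and Hba-a3 in 5 of 10. Hba-a3 was not called against the Glul-0 spots with the highest Cyp2e1 (adjusted p = 0.0554, edgeR). Mitochondrial genes made up 2.61% and 2.17% against 3.29% and 2.63%. Of 13 tested protein-coding genes of the mitochondrial genome 10 were lower, beside 3.19% of all tested genes. DESeq2 did not call Mt-nd1 or Mt-nd5 (adjusted p = 0.151 and 0.549). In the fewer Glul-rich spots low in class II, only Mt-co3 and Mt-cyb of these were called (log2 -0.24 and -0.27). In nuclei only Mt-nd5 and Mt-cyb were lower (adjusted p = 0.0177 and 0.0479, edgeR). The part of haemoglobin and mitochondrial genes in the other results was not tested. With both kinds of gene left out of the sums, 223 genes were higher, all of them among the 226. On the lower side 245 were called, of which 241 were among the 251.

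Exclusive spot classes, 5 in number, were formed to see where along the range of Glul the genes changed. They run from spots with no Glul and low Cyp2e1, through the Glul-0 pericentral spots and spots with some Glul, to the top 10 to 5% and the top 5% of Glul. Oat stood at 293, 408, 375, 549 and 941 CPM along these classes in section A and at 252, 434, 363, 694 and 1022 in section B. Cyp7a1 ran 29.997, 39.6, 37.7, 81.2 and 189 (section A) or 24.4, 42.8, 36.6, 117 and 234 (section B). For both genes the third class, with some Glul, lay slightly under the Glul-0 pericentral spots, and the upper 2 classes lay above all others. The third class had no limit on Cyp2e1. Its median Cyp2e1 was 14.5 and 15.6 UMIs per 10000 in sections A and B, against 18.1 and 19.8 in the Glul-0 pericentral spots. The part of Cyp2e1 in the lower level of the third class was not tested. Ass1 ran the other way, from 2426 in the first class to 1473 in the last in section A and from 2438 to 1348 in section B, with its largest steps also in the upper 2 classes. Cd74 was at 146 and 200 in the fourth class and at 105 and 102 in the third.

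**Figure D4:**
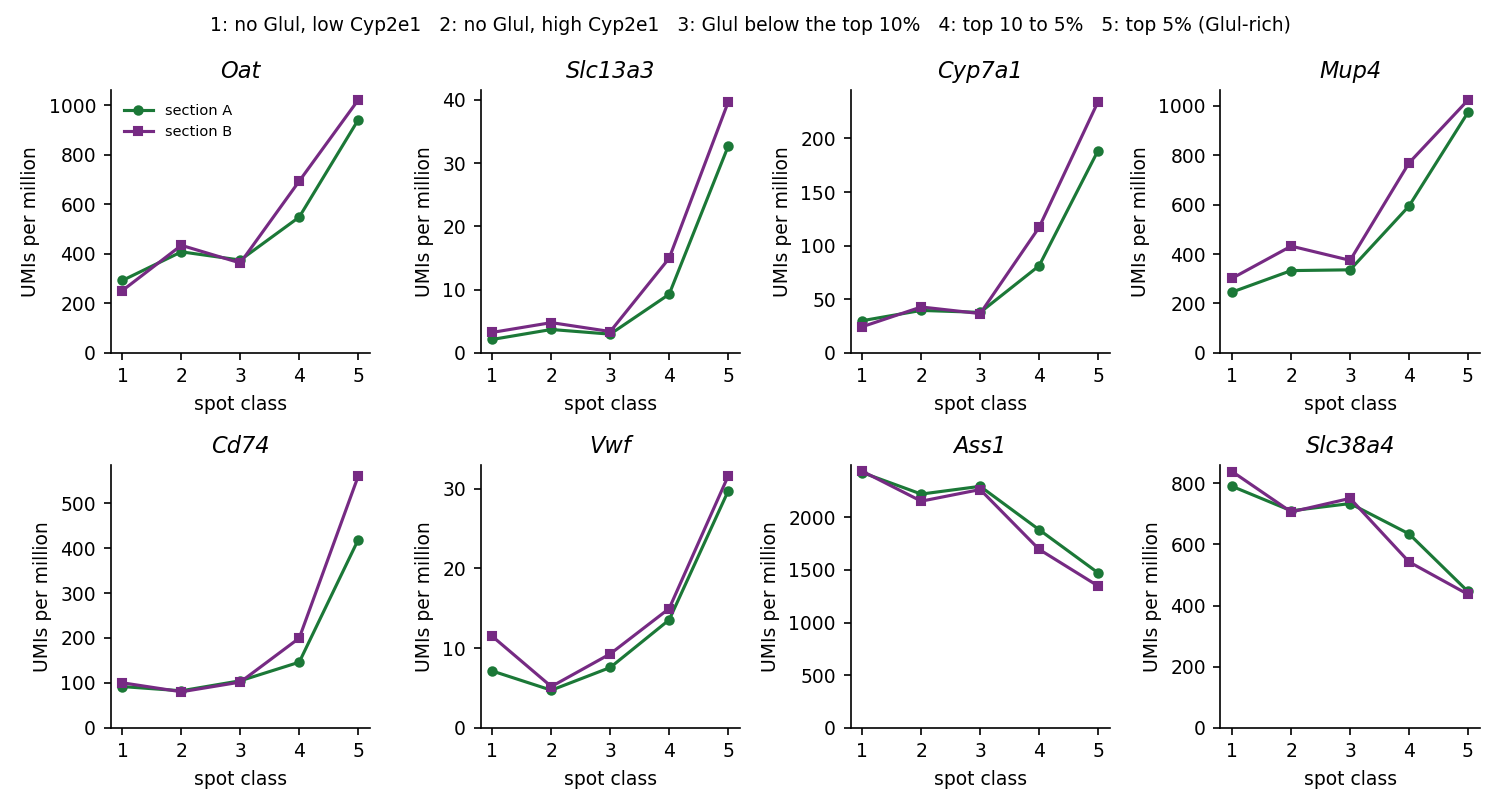
Each panel gives CPM of 1 gene (vertical, from 0) in 5 exclusive spot classes ordered by Glul and Cyp2e1 (horizontal), with section A as green circles and section B as purple squares. Oat, Cyp7a1, Mup4 and Cd74 are highest and Ass1 and Slc38a4 lowest in class 5 in both sections.

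Genes most like Glul over all kept spots were ranked by the lower of the 2 sections' Spearman correlations, among 4166 genes seen in at least 20% of spots. The first 10 were Mup4, Cyp2c6v1, LOC259244, Cyp2e1, LOC501233, Gulo, Oat, AABR07048474.1, Cyp1a2 and Apoa2, with values from 0.257 for Mup4 down to 0.188 for Apoa2. All of these values are low, and 7 of the 10 were also among the first 10 by Pearson's correlation of log2 values. Mup4, a major urinary protein gene, was at 973 and 1023 CPM in the Glul-rich spots against 333 and 432 (2.51-fold). LOC259244, known in the files by its locus name only, was at 3404 and 3265 against 1526 and 1432 (2.15-fold). In nuclei Mup4, Cyp2c6v1 and Oat were called higher. LOC259244 was not called there (log2 0.40, adjusted p = 0.0628, edgeR), nor were LOC501233, Gulo, AABR07048474.1 and Cyp1a2. Apoa2 was called lower in nuclei (log2 -0.46, adjusted p = 0.00456, edgeR). Mup4 has near-identical family members, and how reads that match several of them were counted was not examined. Its own level, and that of other members of the family, is therefore uncertain.

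The 4 nuclear libraries gave samples that the choice of spots had not used. Nuclei of at least 1000 UMIs, of which mitochondrial genes took no more than 10%, were put to the rule, which gave 110, 128, 263 and 125 Glul-rich nuclei in DA1, DA2, LEW1 and LEW2. Nuclei are shallow: the median Glul-rich nucleus held 1, 2, 1 and 5 Glul UMIs in these libraries, and Cyp2e1 lay above the median in 61.8%, 61.7%, 64.6% and 72.0% of them. With the library as a block, 264 of 7698 genes (3.43%) were higher and 459 (5.96%) lower, 9.39% in either direction, than in Glul-0 nuclei with Cyp2e1 above the median (edgeR). These counts were 10 and 11 without that block and 144 and 286 without DA1. The labels and the study's methods give different ages for these animals, so no age is stated.

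Section calls were then read in the nuclei. Of the 226 genes higher in the sections, 169 were tested in nuclei, and 49 (29.0%) were higher and 9 lower there. Of the 251 lower genes 245 were tested, and 150 (61.2%) were lower and 1 higher. Of 27 tested periportal genes 19 were lower and none was higher in nuclei. Of 8 ammonia and glutamine genes 3 were higher and 2 lower. Of 31 P450 and receptor genes 3 were higher and 9 lower in nuclei. Of 31 phase II genes 0 were higher and 4 lower. Cyp2c6v1, Ahr, Nr1i3 and Csad, higher in the sections, were called higher in nuclei too. Cyp1a2, Gulo, Gsta3 and Nqo1 were not called there (adjusted p = 0.124, 0.248, 0.826 and 0.114, edgeR). Over all 6655 genes tested in both, 2.89% were higher and 6.70% lower in nuclei. Median log2 changes in nuclei were 0.28 for the genes higher and -0.51 for the genes lower in the sections, against -0.02 for all.

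**Figure D5:**
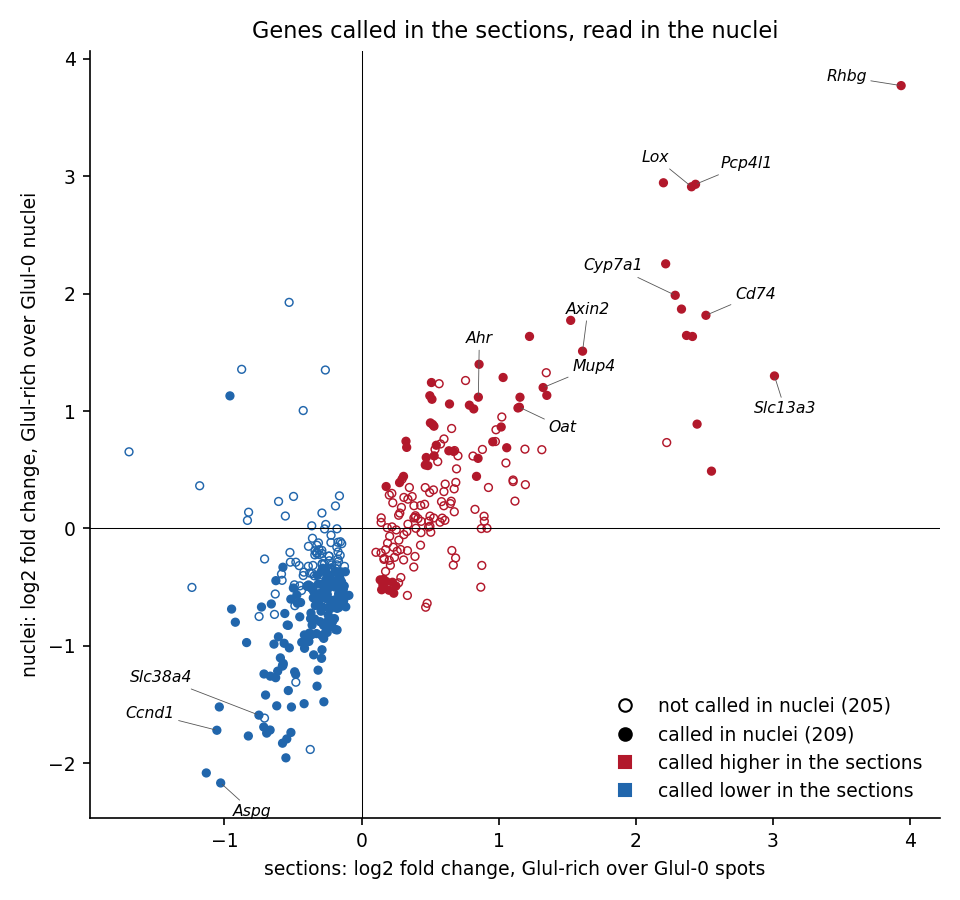
Each point is a gene called in the sections and tested in the nuclei, placed by its log2 fold change in the sections (horizontal) and in the nuclei (vertical), red where higher and blue where lower in the sections and filled where called in nuclei. The 209 filled points lie mostly in the lower left and upper right, with Rhbg, Pcp4l1 and Lox at the upper right.

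Several ammonia and Wnt genes were called in the nuclei in the same direction. Rhbg was at 97.98, 97.96, 75.6 and 96.2 CPM in the Glul-rich nuclei of DA1, DA2, LEW1 and LEW2 and at 4.70, 10.9, 6.14 and 1.799 in the comparison nuclei. The groups did not overlap, and the log2 change was 3.77 ± 0.30 (adjusted p = 1.89e-09, edgeR, higher in 4 of 4 libraries). Oat was at 454, 1278, 951 and 763 against 206, 471, 488 and 318, higher in 4 of 4 libraries although the groups overlapped across libraries (log2 1.03 ± 0.12, adjusted p = 2.67e-07, edgeR). Slc13a3, Axin2 and Cyp7a1 had log2 changes of 1.30, 1.51 and 1.99 and Slc38a4 of -1.59, all called. Ccnd1 was lower by 1.72 on the log2 scale, although DA1 had 36.1 CPM against 35.5. Notum, not called in the sections, was higher in nuclei (log2 0.52, adjusted p = 0.00755, edgeR) but not called with at least 2 Glul UMIs (log2 0.32, adjusted p = 0.117), and Glud1 was not called (log2 -0.16).

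Ass1, Hal and Alb were lower in the nuclei by 1.42, 1.77 and 0.91 on the log2 scale. For Hal the change was -0.08 (adjusted p = 0.790, edgeR) in nuclei with at least 2 Glul UMIs, so its call rests on the choice of nuclei. Cd74 was at 232, 102, 11.5 and 112 CPM in the Glul-rich nuclei against 43.4, 32.1, 9.91 and 17.5, so 3 libraries showed a wide gap and LEW1 hardly any (log2 1.82 ± 0.26, adjusted p = 9.85e-05, edgeR). RT1-Da, RT1-Bb and RT1-Db1 were called higher too, with log2 changes of 1.87, 2.25 and 1.64. In LEW1, RT1-Db1 (6.88 against 7.55 CPM) and RT1-Bb (2.29 against 2.60) went the other way, and RT1-Db1 was called in 5 of 9 alternatives. The 4 genes were also called in nuclei with at least 2 Glul UMIs. The Glul-rich nuclei were not required to hold Cyp2e1, and Ptprc was at 82.5, 85.7, 4.58 and 41.7 against 5.75, 10.6, 7.79 and 16.2. The Kupffer list summed to 1098, 1804, 243 and 603 against 236, 125, 205 and 277, and 2 of its 10 tested genes were higher. The part of such cells in the change of Cd74 was not tested. In Glul-rich nuclei with Cyp2e1 above the median, Cd74 had a log2 change of 0.84 (adjusted p = 0.693, edgeR), RT1-Da of 1.18 (adjusted p = 0.253) and RT1-Bb of 1.31 (adjusted p = 0.126), and none passed. In those nuclei Oat, Rhbg and Cyp7a1 had changes of 1.38, 3.91 and 2.20 and were called.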

How the data were processed

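The authors deposited UMI counts per gene and spot (2 Visium sections, Space Ranger 1.1.0, a custom rat reference) and per gene and nucleus (4 libraries). No doublet caller was run. Classes were formed from Glul and Cyp2e1 UMIs per 10000 as stated above, and UMIs were summed per class and library. Sums were tested with edgeR 4.0.16 (TMM, filterByExpr, robust quasi-likelihood) with the library as block, under R 4.3.3. Both classes come from the same section or rat, which makes the pairs; deviations from class means correlated at 0.11 between the classes of a section and at 0.31 to 0.55 within a nuclear library. Sections held 33862917 and 34164473 UMIs in kept spots. Intervals cover counting error only. DESeq2 1.42.0, other scalings, filters, thresholds and left-out libraries were alternatives. The 14 gene lists (280 genes, 24 of them not matched in the files) and the members were chosen with earlier results of these data known. Named genes were those of the first 3 lists and the 10 largest changes in each direction at 50 or more CPM in the higher class. The 3 largest calls and most abundant gene of other lists, and the 10 genes most like Glul, were added. Other genes, Cyp27a1, Cyp8b1, Nr1i2 and Gls2 among them, were chosen after their values were seen. Whole-cell libraries were not used here, and a result that falls under this rule for named genes is not reported here.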

Additional observations from a re-analysis of the deposited data

Results flagged for a closer look

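Of the named genes called in the nuclei, 34 were examined for a library that stands apart, and 1 had a library far from the other 3, and chance alone sets about 1 in 20 such groups of 4 apart. Mup4, a major urinary protein gene, had a log2 ratio of 2.02 in LEW2, beside 1.17, 1.13 and 1.13 in DA1, DA2 and LEW1. It was higher in the Glul-rich nuclei of 4 of 4 libraries.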

How the results depend on the processing

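The main counts were 226 genes higher in Glul-rich spots and 251 genes lower in Glul-rich spots, and 4 alternatives moved the counts by over 1.5 times. They gave 149 and 162 with the Glul-0 spots of highest Cyp2e1, 54 and 87 with DESeq2, and 58 and 66 with Glul-rich spots low in MHC class II, the last chosen after seeing the data. Without the section as a block (no pairing) 140 and 104 genes were called. The counts of 264 genes higher in Glul-rich nuclei and 459 genes lower in Glul-rich nuclei became 690 and 956 with at least 2 Glul UMIs, 168 and 276 with at least 1500 UMIs, and 10 and 11 without the pairing by library. DESeq2 gave 103 higher, no filter gave 972 lower, and Glul-rich nuclei with Cyp2e1 above the median gave 303 lower. Leaving out 1 library gave 144 to 314 higher and 260 to 472 lower, with 144 and 286 without DA1 and 260 lower without LEW2. The cause of these moves was not tested. Among values called in either setting the sign changed for 3, as Cyp2c11 in spots was 0.14 against all other spots, Slc38a2 in nuclei was 0.018 with at least 2 Glul UMIs, and Marco in nuclei was -1.91 with Cyp2e1 above the median. Of the named genes called, 31 of 56 in spots and 2 of 35 in nuclei were called under every alternative that gave them a test, and some, such as Rhbg and Slc13a3 in spots, had none from DESeq2. Values called in neither setting also changed sign, such as Kdr in nuclei, at -0.67 with Cyp2e1 above the median, and Rspo3 in spots low in MHC class II, at -0.06. Leaving out a section leaves no spread to test, so only the ratio of the other section was taken. Depth limits the genes under about 10 UMIs a class, such as Sp5.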

Other observations

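Uroc1 and Ftcd, enzymes of histidine breakdown that were chosen after their values were seen, were lower in both kinds of sample. Uroc1 was at 152 and 162 CPM against 231 and 251 in sections A and B, and Ftcd at 326 and 287 against 437 and 422. In nuclei Uroc1 fell by 1.73 and Ftcd by 1.95 on the log2 scale (adjusted p = 1.36e-07 and 6.21e-11, edgeR), lower in 4 of 4 libraries each. Gls2, the liver glutaminase that runs opposite to Glul and a member of the periportal list, was at 154 and 156 against 237 and 243 in the sections and fell by 1.74 on the log2 scale in nuclei. In nuclei with at least 2 Glul UMIs the changes were smaller, -0.76 for Uroc1, -0.67 for Ftcd and -0.44 for Gls2.

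Other genes chosen in the same way follow. Pcp4l1 had 8.31 and 22.1 CPM in the Glul-rich spots against 2.46 and 2.79, and 779, 241, 117 and 96.2 in the Glul-rich nuclei of DA1, DA2, LEW1 and LEW2 against 86.2, 28.3, 13.9 and 10.8 (log2 2.93 ± 0.16, adjusted p = 8.2e-15, edgeR). Tcn2, a vitamin B12 carrier, was at 125 and 128 against 60.9 and 57.1 in the sections and had a log2 change of 1.29 in nuclei, or 0.59 with at least 2 Glul UMIs. Lox, the lysyl oxidase that crosslinks elastin and collagen, was at 34.4 and 30.9 against 5.33 and 6.37 in the sections, and its UMIs in Glul-rich nuclei numbered 4, 0, 4 and 36 in DA1, DA2, LEW1 and LEW2. Scd, a fatty acid desaturase, was not called in the sections (1403 and 1310 against 1325 and 1203 CPM) and fell by 1.40 on the log2 scale in nuclei (adjusted p = 9.45e-08, edgeR). The cause of this gap was not tested. Immunoglobulin gene Ighm was called in the sections, with 57.0 CPM in section A against 17.0 and 30.2 in section B against 23.5, and was not tested in nuclei.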
